A study of Mus musculus with 8 samples.

Results

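Tubulins and the enzymes that modify them were examined in the testis of mice with and without a deletion in Tmem232, which encodes a membrane protein of the testis. The 46 genes were chosen by family and function, with earlier results of these data known, and all 46 were found among the 19906 genes of the deposited table. They comprise 8 alpha tubulins, 8 beta tubulins, 4 gamma, delta and epsilon tubulins, 3 enzymes of acetylation, 5 genes of tyrosination and detyrosination, 9 glutamylases, 3 glycylases and 6 cytosolic carboxypeptidases. Total RNA came from the testes of Tmem232-/- mice (4 animals) and Tmem232+/+ mice (4 animals), all 2 months old, and each animal gave 1 library. The deletion was made with CRISPR-Cas9 in C57BL/6 embryos, is carried by the whole animal and removes an inner stretch of the gene that shifts its reading frame. The study asked how the loss of Tmem232 affects the sperm tail and the acetylation of its alpha tubulin. The libraries are called KO1 to KO4 and WT1 to WT4 after their titles.

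Microtubules are hollow tubes of alpha and beta tubulin dimers, and the doublet microtubules of the axoneme carry the beat of the sperm tail. Tubulins are made from several genes, the isotypes, whose proteins differ mostly in their acidic tails. After assembly the tubulins are marked by enzymes. ATAT1 acetylates a lysine of alpha tubulin inside the tube, and vasohibins remove the last tyrosine of the alpha tail, which TTL adds back. Enzymes of the TTLL family add chains of glutamate or glycine to the tails, and cytosolic carboxypeptidases trim the chains of glutamate. In the testis these marks are found on the manchette, a microtubule skirt that shapes the spermatid head, and on the axoneme.

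The labels were checked first with Tmem232 itself. It had 148, 132, 123 and 122 CPM (counts scaled to equal library totals after TMM adjustment) in KO1 to KO4 and 111, 106, 108 and 109.9 CPM in WT1 to WT4. Its log2 fold change was 0.27 (SE 0.0721) with an adjusted p of 0.0335 by the quasi-likelihood F test of edgeR, adjusted by Benjamini and Hochberg as are all adjusted p-values here. The call was lost without KO1, KO2, WT2 or WT4 (0.0858 to 0.0892), over a range of 0.00269 to 0.114 in all alternatives. The count of Tmem232 thus did not verify the labels. The table has a single count per gene, and reads from the deleted exons were not analysed here. KO and WT therefore mean libraries labelled Tmem232-/- and libraries labelled Tmem232+/+ throughout, and every direction rests on these labels. Each library held from 15428421 to 16350871 counts. The first principal component held 53.5% of the variance and separated the labels, and WT3 was the WT library nearest to the KO libraries on it and stood apart on the second, which held 14.2%.

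Tuba4a and Tuba8, the alpha tubulins that rose, differ from the abundant ones at the sites that vasohibins and ATAT1 act on, Tuba8 at both and Tuba4a at the first, and these stretches are shown for that reason. Sequences are from the GENCODE annotation of GRCm38, 5′ to 3′ on the coding strand. The ends of the coding sequences are printed with the last codon before the stop in capitals.
Tuba3a: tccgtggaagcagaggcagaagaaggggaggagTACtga
Tuba4a: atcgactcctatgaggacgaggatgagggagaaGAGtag
Tuba8: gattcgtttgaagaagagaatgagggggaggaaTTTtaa
These stretches lie at chr6:125278358-125278396 on the minus strand for Tuba3a, chr1:75215622-75215660 on the minus strand for Tuba4a and chr6:121226041-121226079 on the plus strand for Tuba8. TAC encodes tyrosine, the residue that vasohibins remove. Tuba1a, Tuba1b, Tuba1c, Tuba3a and Tuba3b end in a tyrosine codon, whereas Tuba4a ends in a codon for glutamate and Tuba8 and Tubal3 end in a codon for phenylalanine.

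The codons around position 40, counted from the first methionine, hold the lysine that ATAT1 acetylates. They are printed with codon 40 in capitals.
Tuba1a: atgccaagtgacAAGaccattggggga
Tuba3a: atgccaagcgacAAAaccattggcggc
Tuba4a: atgcccagcgatAAGaccattggtgga
Tuba8: tttggcactcagGCCagcaagatcaac
They lie at chr15:98951563-98951589, chr6:125282850-125282876 and chr1:75217306-75217332 on the minus strand and at chr6:121220486-121220512 on the plus strand. AAG and AAA encode lysine. Codon 40 encodes lysine in Tuba1a, Tuba1b, Tuba1c, Tuba3a, Tuba3b and Tuba4a, and alanine in Tuba8, where the residue aligned with the lysine of Tuba1a is also the one at position 40. The lysine codon in the printed stretch of Tuba8, aag, lies downstream of the capitals. In Tubal3 the residue aligned with that lysine is a proline, at position 47. Tuba3a and Tuba3b encode the same protein of 450 residues and their coding sequences are 97.0% identical. Their transcripts share 174 windows of 100 bases, 12.3% of the windows of Tuba3a and 10.4% of those of Tuba3b, so that reads could have been split between them by the counting. Tuba1b shares 799 such windows with Tuba1c and 448 with Tuba1a, whereas Tuba4a and Tuba8 share none with another alpha tubulin.

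Of the 46 genes, 41 passed the filter on low counts and were tested. At an adjusted p under 0.05, 14 of them were higher in the KO libraries, 34.1% of those tested, beside 10.3% of all 15787 tested genes. Ttll12 and Tubb5 were lower, 4.88% of those tested beside 1.46% of all. The median log2 fold change was 0.09 over the 41 genes and -0.05 over all tested genes. Under the rule of at least 2-fold change with an unadjusted p under 0.05, Tuba8, Tuba4a, Ttll2 and Ttll10 were higher, 9.76% of those tested beside 5.48% of all, and none was lower, beside 0.114% of all. The CPM of the labels did not overlap for 13 genes that were higher in KO, beside 11.8% of all tested genes, and for 4 that were lower, beside 6.88%. The other 25 tested genes had log2 fold changes between -0.20 and 0.23 and adjusted p-values between 0.103 and 0.929. In the RefSeq annotation 20 of the 46 gene bodies overlap another gene, for 10 of them a gene of the deposited table, and reads of such pairs may not be separable. The genes left untested had few counts. Tubb1 had at most 2 counts in any library, Tubb2b at most 11.9, Tubb4a at most 9, Tubg2 at most 13 and Agbl1 at most 11.

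**Figure D1:**
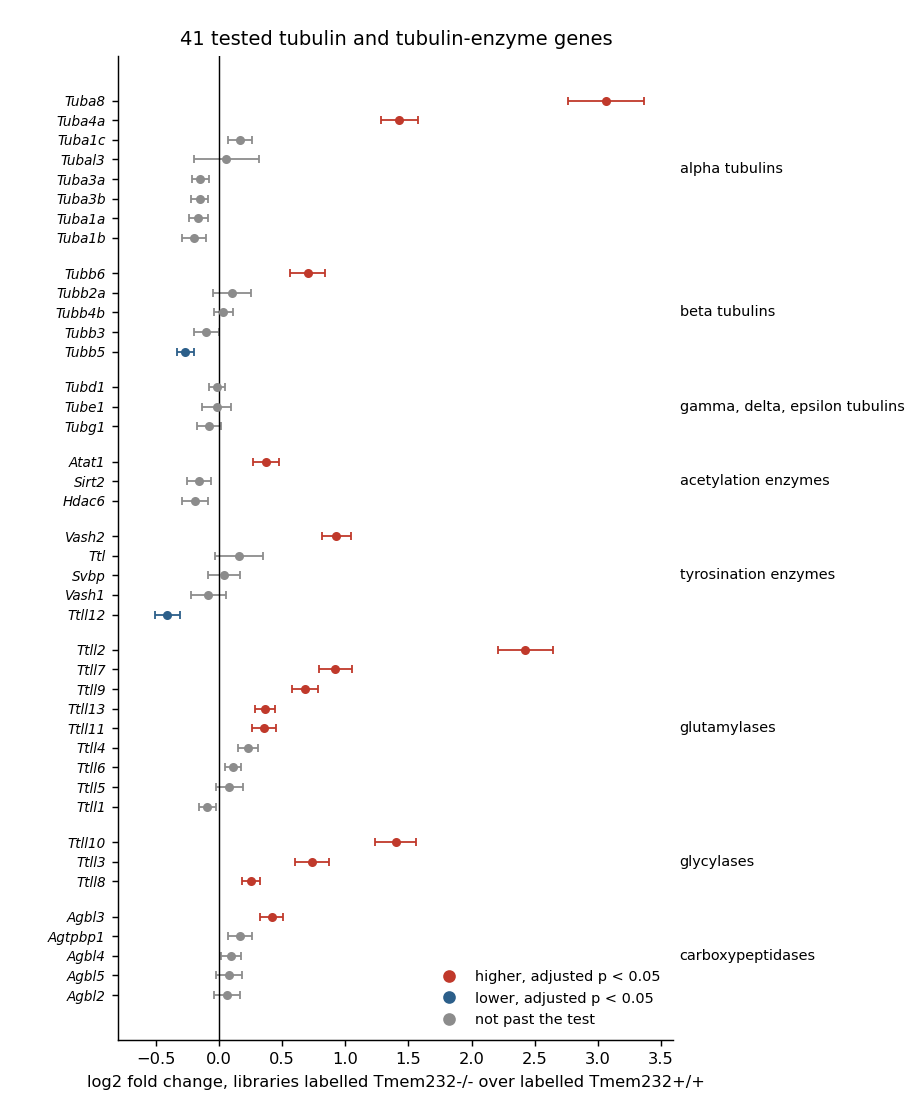
Log2 fold change of KO over WT libraries (points) with its SE (bars, edgeR, n = 4 per label) for the 41 tested genes, ordered by role and by size. Tuba8 lies farthest to the right at 3.07, all 3 glycylases lie above 0, and Ttll12 at -0.41 and Tubb5 at -0.27 are the genes past the test below 0.

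Among the alpha tubulins, the rises were in minor isotypes. Tuba8, whose gene lies on chromosome 6 from 121210734 to 121226098 in GRCm38.p6, had 49.5, 41.7, 30.2 and 50.9 CPM in KO1 to KO4 and 5.11, 2.24, 8.74 and 4.48 CPM in WT1 to WT4. The lowest KO library thus exceeded the highest WT library, and the means of 43.1 ± 9.49 (SD, n = 4) and 5.14 ± 2.70 CPM (SD, n = 4) differed 8.37-fold. The log2 fold change of Tuba8 was 3.07 (SE 0.301, adjusted p = 5.27e-05 from edgeR). Tuba4a (chromosome 1, from 75214972 to 75221261) had 27.1, 23.9, 16.8 and 23.9 CPM in KO1 to KO4 and 9.10, 7.33, 9.18 and 8.48 CPM in WT1 to WT4. Its labels did not overlap either, and the 4 WT libraries lay close together. The log2 fold change of Tuba4a was 1.43 (SE 0.146, adjusted p = 6.51e-05). Its gene body overlaps those of Stk16 and A630095N17Rik, and its counts were not whole in any library. In both genes KO3 was the lowest KO library and WT3 the highest WT library.

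The main alpha tubulins of the testis were slightly lower in KO, without passing the test. Tuba3a, a testis isotype, had 1648, 1654, 1664 and 1674 CPM in KO1 to KO4 and 1914, 1712, 1959 and 1779.8 CPM in WT1 to WT4. Its copy Tuba3b had 1605, 1689, 1675 and 1676 CPM in KO1 to KO4 and 1963, 1701, 1896 and 1837 CPM in WT1 to WT4. For each gene every KO library lay below every WT library (exact permutation test over the 70 arrangements of the libraries, two-sided p = 0.0286, the smallest that 4 against 4 allow). The log2 fold changes of Tuba3a and Tuba3b were both -0.15 (SE 0.065 and 0.0655) with adjusted p-values of 0.182 and 0.171 over all genes. Without 1 library they lay between -0.18 and -0.087 for Tuba3a and between -0.19 and -0.085 for Tuba3b. The ubiquitous isotypes Tuba1a and Tuba1b had log2 fold changes of -0.17 and -0.20 and Tuba1c one of 0.17, with adjusted p-values of 0.199, 0.219 and 0.307. Tubal3, a divergent isotype, had a mean of 1.31 CPM in KO and 1.25 in WT.

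Levels between genes were compared in FPKM, fragments per kilobase of transcript scaled to the size of the library. Tuba3a and Tuba3b had means of 1228 and 1178 FPKM in KO and 1394 and 1341 FPKM in WT, and their ranges over the libraries overlapped each other. The next isotypes were Tuba1a with 142 FPKM in KO and 163 in WT and Tuba1b with 122 and 143, also overlapping each other. Together Tuba3a and Tuba3b made up 87.8% ± 0.587 (SD, n = 4) of the summed FPKM of the 8 alpha tubulins in KO and 89.0% ± 1.27 (SD, n = 4) in WT. The summed FPKM itself was 2739 ± 95.7 (SD, n = 4) in KO and 3073 ± 108 (SD, n = 4) in WT, with every KO library below every WT library (exact permutation test, two-sided p = 0.0286). Tuba3a and Tuba3b make up most of this sum, so it is not a result apart from theirs. FPKM carry no TMM scaling, and on TMM-scaled CPM the sum in KO was 0.913-fold that in WT. The difference in share of -1.12 percentage points was within the spread of the WT libraries (exact permutation test, two-sided p = 0.171), and it was -1.66 without WT2 (p = 0.0286) and -0.62 without WT3 (p = 0.371). The share of Tuba8 was 1.41%, 1.15%, 0.840% and 1.39% in KO1 to KO4 and 0.123%, 0.0603%, 0.216% and 0.116% in WT1 to WT4. Tuba4a and Tuba8 together held 1.58% ± 0.333 (SD, n = 4) in KO and 0.264% ± 0.0688 (SD, n = 4) in WT, a share chosen after its values were seen and given without a test. Tuba8 thus moved from the level of Tuba4a in WT to that of Tuba1c in KO, since the 2 pairs had mean FPKM of 4.01 and 4.17 in WT and of 32.8 and 25.6 in KO.

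**Figure D2:**
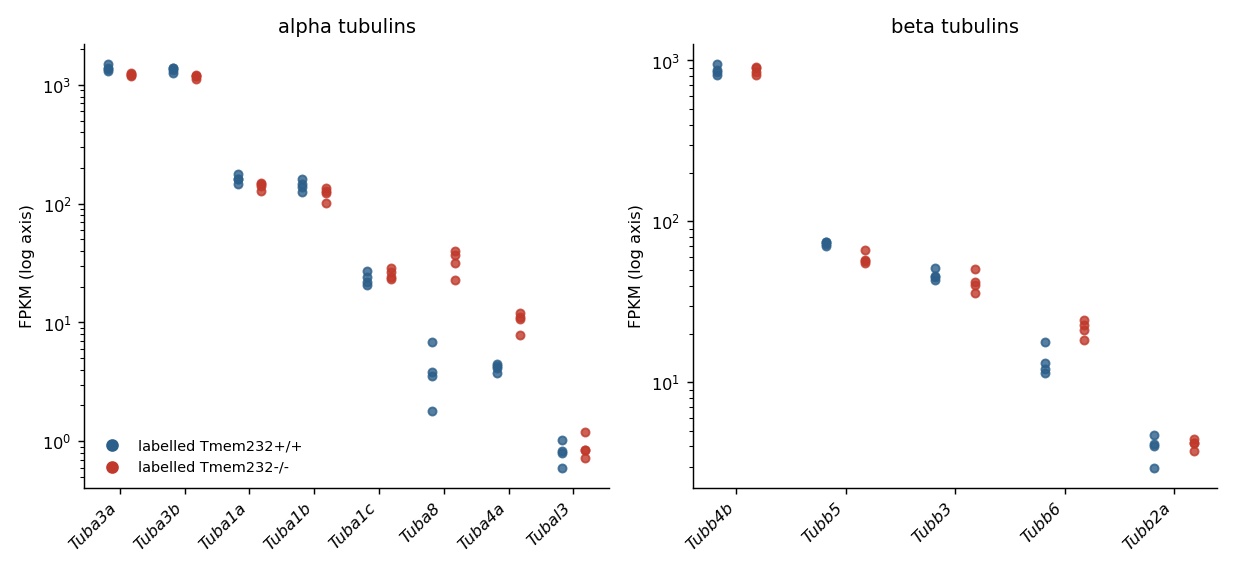
FPKM of the tested alpha and beta tubulins on a log axis, with 1 point per library (4 per label). Tuba3a, Tuba3b and Tubb4b lie far above the other isotypes in both labels, and Tuba8 is the isotype whose KO points, from 22.9 to 39.7 FPKM, are farthest from its WT points, from 1.78 to 6.89 FPKM.

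Beta tubulin was dominated by Tubb4b, the isotype of axonemes, which did not pass the test. Tubb4b had 1343, 1234, 1176 and 1265 CPM in KO1 to KO4 and 1268, 1119.8, 1325 and 1196 CPM in WT1 to WT4, and the labels overlapped. The log2 fold change was 0.03 (SE 0.0736, adjusted p = 0.821), with a sign that turned under library size alone, with FPKM and without KO1 or WT2. Tubb4b made up 87.2% ± 0.709 (SD, n = 4) of the summed FPKM of the 8 beta tubulins in KO and 86.4% ± 0.589 (SD, n = 4) in WT (exact permutation test, two-sided p = 0.143). The difference was 0.86 percentage points on FPKM and 1.53 on summed counts. On counts the shares were 83.1% in KO and 81.6% in WT (exact permutation test, two-sided p = 0.0571).

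Tubb6 and Tubb5, beta tubulins of lower level, changed in opposite directions. Tubb6 had 39.5, 36.2, 29.3 and 33.1 CPM in KO1 to KO4 and 18.3, 20.1, 27.5 and 18.9 CPM in WT1 to WT4. WT3 came nearest to the KO libraries without reaching them, and the log2 fold change of Tubb6 was 0.70 (SE 0.138, adjusted p = 0.00509). Tubb5, a broadly expressed isotype (chromosome 17, from 35833920 to 35838301), had 147, 139, 143 and 162 CPM in KO1 to KO4 and 182, 178, 179 and 173 CPM in WT1 to WT4. Every KO library lay below every WT library, and the log2 fold change of Tubb5 was -0.27 (SE 0.0664, adjusted p = 0.0208). This call was lost with an adjusted p between 0.0509 and 0.111 without KO1, KO2, KO3, WT1, WT2 or WT4, and over all alternatives the adjusted p lay between 0.00305 and 0.111. Tubb3 and Tubb2a, both known from neurons, had log2 fold changes of -0.10 and 0.10 and adjusted p-values of 0.547 and 0.714. Tubg1, which nucleates microtubules, and Tubd1 and Tube1, which act at centrioles, had log2 fold changes of -0.08, -0.02 and -0.02, and none of these 3 had an unadjusted p under 0.05 in edgeR or a call in DESeq2.

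**Figure D3:**
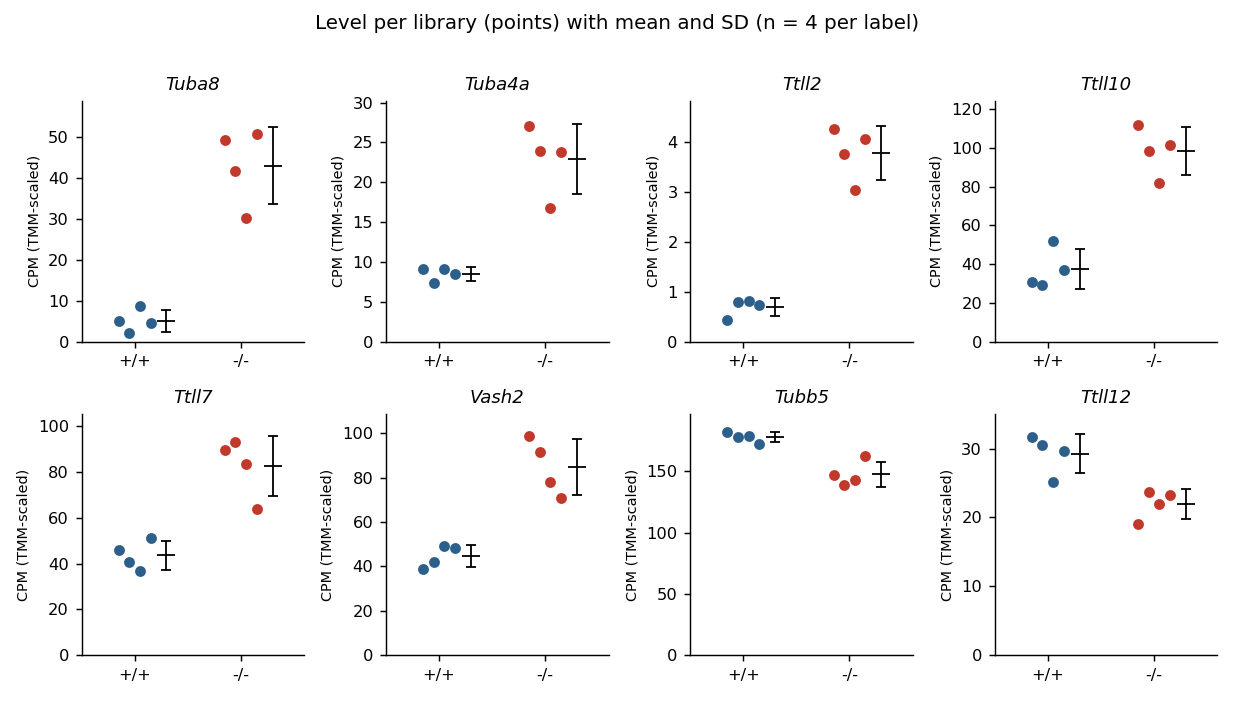
CPM after TMM scaling in each library (points) with the mean and SD (bars, n = 4 per label) for 6 genes that were higher and 2 that were lower in KO, on axes that start at 0. In each panel the points of the labels do not overlap. Tuba8 ranges from 2.24 to 8.74 CPM in WT and from 30.2 to 50.9 CPM in KO.

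Of the 3 acetylation enzymes Atat1 alone passed the test, beside 10.3% of all tested genes. Atat1, the acetyltransferase of alpha tubulin, had 62.0, 53.9, 48.9 and 51.5 CPM in KO1 to KO4 and 37.7, 40.2, 49.97 and 39.2 CPM in WT1 to WT4. WT3 lay above KO3, so the labels overlapped, and the log2 fold change of Atat1 was 0.37 (SE 0.104, adjusted p = 0.0397). The call was lost without KO1, KO2, KO4, WT1, WT2 or WT4, with adjusted p-values between 0.0537 and 0.119, and with library size alone (0.065), and over all alternatives the adjusted p lay between 0.00188 and 0.12. Hdac6, a deacetylase of tubulin, had 131, 115, 121 and 155 CPM in KO1 to KO4 and 135, 159.7, 161 and 139.9 CPM in WT1 to WT4. Sirt2, the other deacetylase, had 181, 168, 161 and 192 CPM in KO1 to KO4 and 185, 179, 234 and 186 CPM in WT1 to WT4. The labels overlapped in both, with log2 fold changes of -0.19 for Hdac6 and -0.16 for Sirt2 and adjusted p-values of 0.264 and 0.331. Without 1 library they lay between -0.27 and -0.12 for Hdac6 and between -0.20 and -0.032 for Sirt2, both smallest in size without WT3. Per length, Sirt2 was the most abundant of the 3 genes, with 104 FPKM in KO and 119.5 in WT, followed by Hdac6 with 34.3 and 40.1 and Atat1 with 21.9 and 17.0.

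In detyrosination, Vash2 rose while its partner and its relative did not pass the test. Vash2, a vasohibin that removes the terminal tyrosine of alpha tubulin (chromosome 1, from 190947646 to 190979368), had 98.6, 91.7, 77.9 and 71.0 CPM in KO1 to KO4 and 38.7, 42.1, 49.1 and 48.4 CPM in WT1 to WT4. The lowest KO library exceeded every WT library, and the log2 fold change of Vash2 was 0.93 (SE 0.115, adjusted p = 0.000208). Vash1, the other vasohibin, had 4.93, 6.78, 5.88 and 5.04 CPM in KO1 to KO4 and 6.60, 5.75, 6.21 and 5.47 CPM in WT1 to WT4. Per length, Vash2 had 22.0 FPKM in KO and 11.9 in WT, beside 0.935 and 1.048 for Vash1. Svbp, the small protein that both vasohibins need, had 56.5, 45.2, 43.8 and 53.0 CPM in KO1 to KO4 and 51.4, 38.6, 57.8 and 45.9 CPM in WT1 to WT4. The log2 fold changes were -0.09 for Vash1 and 0.04 for Svbp (adjusted p = 0.735 and 0.883), and the signs were not stable, since that of Vash1 turned without WT1 and that of Svbp without KO1 or WT2.

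Ttl, the ligase that restores the tyrosine, was near the lower end of the tested genes. It had 2.60, 3.89, 2.91 and 3.20 CPM in KO1 to KO4 and 3.36, 2.91, 2.09 and 2.95 CPM in WT1 to WT4, with a log2 fold change of 0.16 (SE 0.19, adjusted p = 0.646). The log2 fold change of Ttl was 0.038 without KO2 and 0.29 without WT1, the ends of its range without 1 library. Ttll12, a member of the same family without an established ligase activity, was one of the 2 genes that fell (chromosome 15, from 83575094 to 83595157). It had 19.0, 23.7, 21.9 and 23.3 CPM in KO1 to KO4 and 31.7, 30.5, 25.2 and 29.7 CPM in WT1 to WT4, and its labels did not overlap. The log2 fold change of Ttll12 was -0.41 (SE 0.0993, adjusted p = 0.0181), and the call was lost without KO1, WT1, WT2 or WT4 (adjusted p between 0.0524 and 0.106, with a range of 0.00501 to 0.106 over all alternatives).

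The glutamylases were the largest group of enzymes, and 5 of the 9 rose while none fell, beside 10.3% and 1.46% of all tested genes. Ttll2, a little studied glutamylase, had the largest fold of the group at a low level (chromosome 17, from 7350627 to 7364035). It had 4.26, 3.77, 3.04 and 4.06 CPM in KO1 to KO4, from 48 to 66 counts, and 0.436, 0.787, 0.823 and 0.737 CPM in WT1 to WT4, from 7 to 13 counts. The log2 fold change of Ttll2 was 2.43 (SE 0.221, adjusted p = 3.73e-05), and on the log2(FPKM + 1) scale, which understates changes of low genes, it was 1.16. Ttll7, a glutamylase with a preference for beta tubulin (chromosome 3, from 146852184 to 146984009), had 89.7, 93.2, 83.4 and 63.9 CPM in KO1 to KO4 and 45.9, 40.9, 36.6 and 51.1 CPM in WT1 to WT4. Ttll9, which acts in sperm flagella, had 81.5, 84.7, 67.7 and 72.4 CPM in KO1 to KO4 and 45.6, 41.3, 55.3 and 49.2 CPM in WT1 to WT4. The labels overlapped in neither, and the log2 fold changes were 0.92 for Ttll7 (SE 0.13, adjusted p = 0.000507) and 0.68 for Ttll9 (SE 0.101, adjusted p = 0.000779). Ttll2 overlaps Unc93a2 and Ttll9 overlaps Dusp15 in the annotation.

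Smaller rises were seen in an abundant and in a weak glutamylase. Ttll13 had 353, 383, 377 and 320.3 CPM in KO1 to KO4 and 303, 272, 254 and 286 CPM in WT1 to WT4 (log2 fold change 0.36, SE 0.0797, adjusted p = 0.0106, with a range of 6.28e-05 to 0.0604 over all alternatives). Per length, Ttll13 was the most abundant glutamylase in KO with 118 FPKM, and it had 94.2 FPKM in WT. Ttll11, which elongates glutamate chains, had 23.7, 26.4, 25.0 and 21.5 CPM in KO1 to KO4 and 20.7, 17.0, 18.6 and 19.2 CPM in WT1 to WT4. Its labels were apart by less than 1 CPM, and the log2 fold change of 0.35 (SE 0.0938, adjusted p = 0.0298) lost its call without KO1, KO2, KO3, WT2 or WT4, with adjusted p-values between 0.0611 and 0.102 and a range of 0.00614 to 0.119 over all alternatives. Ttll1, the catalytic part of the polyglutamylase complex, Ttll4, Ttll5 and Ttll6 had log2 fold changes of -0.09, 0.23, 0.08 and 0.11. Of these, Ttll4 had the lowest adjusted p in edgeR, 0.103, and was called in DESeq2. Ttll5 came next to Ttll13 in KO with 99.8 FPKM and lay above it in WT with 97.5 FPKM. Over all libraries the ranges of the 2 genes overlapped.

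All 3 glycylases rose, beside 10.3% of all tested genes, Ttll8 with a call that several alternatives lost. Ttll10, which elongates glycine chains (chromosome 4, from 156034835 to 156050817), had 112, 98.5, 81.7 and 102 CPM in KO1 to KO4 and 31.0, 29.4, 51.9 and 37.2 CPM in WT1 to WT4. Its means were 98.5 ± 12.5 (SD, n = 4) and 37.4 ± 10.3 CPM (SD, n = 4), with a log2 fold change of 1.40 (SE 0.165, adjusted p = 0.000156). Ttll3, which adds the first glycine, had 58.0, 51.2, 45.6 and 47.5 CPM in KO1 to KO4 and 24.4, 26.9, 38.5 and 31.5 CPM in WT1 to WT4, a log2 fold change of 0.74 (SE 0.134, adjusted p = 0.00299). Ttll3 overlaps Arpc4, and its counts were not whole in any library. Ttll8, the other enzyme that starts glycine chains, was the most abundant of the group per length with 79.4 FPKM in KO and 69.0 in WT. It had 294, 283, 280.4 and 276 CPM in KO1 to KO4 and 247, 213, 258 and 235 CPM in WT1 to WT4. The log2 fold change of Ttll8 was 0.25 (SE 0.0708, adjusted p = 0.043), and the call was lost without KO1, KO2, KO3, WT2 or WT4 (adjusted p between 0.0904 and 0.123), with library size alone (0.0551) and on both FPKM scales (0.0625 and 0.065), with a range of 0.00444 to 0.137 over all alternatives. The labels did not overlap in any of the 3 genes.

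Of the 5 tested carboxypeptidases, which shorten glutamate chains, Agbl3 alone passed the test, as a rise, beside 10.3% of all tested genes. Agbl3 had 105, 106, 103 and 79.7 CPM in KO1 to KO4 and 70.0, 75.1, 73.1 and 76.4 CPM in WT1 to WT4. KO4 was close to the WT libraries but above them, and the log2 fold change was 0.42 (SE 0.0913, adjusted p = 0.0101). Agbl5, which removes the branching glutamate, was by far the most abundant of the group with 291 FPKM in KO and 282 in WT, and Agbl2 and Agtpbp1 followed with 66.4 and 64.2 FPKM in KO and 65.1 and 58.8 in WT. The log2 fold changes of Agbl2, Agbl4, Agbl5 and Agtpbp1 lay between 0.06 and 0.16, with overlapping labels.

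The members that rose did not share 1 order of the libraries. In 10 of the 14 genes that were higher in KO, WT3 was the highest WT library, namely in Tuba4a, Tuba8, Tubb6, Atat1, Vash2, Ttll2, Ttll3, Ttll8, Ttll9 and Ttll10, and in 8 of the 14 KO3 was the lowest KO library. In Ttll7 and Ttll13 WT3 was instead the lowest WT library and KO4 the lowest KO library. Among all 41 tested genes, Ttll1, Ttll4, Ttll5, Ttll7, Ttll13, Agtpbp1, Agbl2 and Agbl5 had both WT3 and KO4 at the lower end of their label.

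Markers of germ cell stages also moved with the labels. In whole testis, fewer cells of a type and less RNA per cell cannot be told apart. All 10 markers of round spermatids and all 11 of elongating spermatids were higher in KO, with median log2 fold changes of 1.08 and 1.67. The summed CPM of the elongating spermatid markers was 2279, 1807, 1376 and 2124 in KO1 to KO4 and 448, 344, 699.7 and 505 in WT1 to WT4, and the sum of the round spermatid markers lay between 467 and 652 in KO and between 187 and 310.2 in WT. WT3 thus had the highest sums among the WT libraries and KO3 the lowest among the KO libraries. Of the 16 called genes, Ttll10 alone followed the order of the elongating spermatid sum exactly within both labels. Tuba8 departed from that order only in that KO1 and KO4, and WT1 and WT4, changed places. The elongating spermatid sum was 3.80-fold higher in KO, beside 8.37-fold for Tuba8, 2.63-fold for Ttll10, 1.90-fold for Vash2 and 0.902-fold for Tuba3a. Abundant markers weigh most in this sum. Singly, the 11 markers had log2 fold changes between 1.28 and 4.44, and that of Tuba8, 3.07, lay inside this range. The part of the spermatid genes in the differences of the tubulin genes was not tested.

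**Figure D4:**
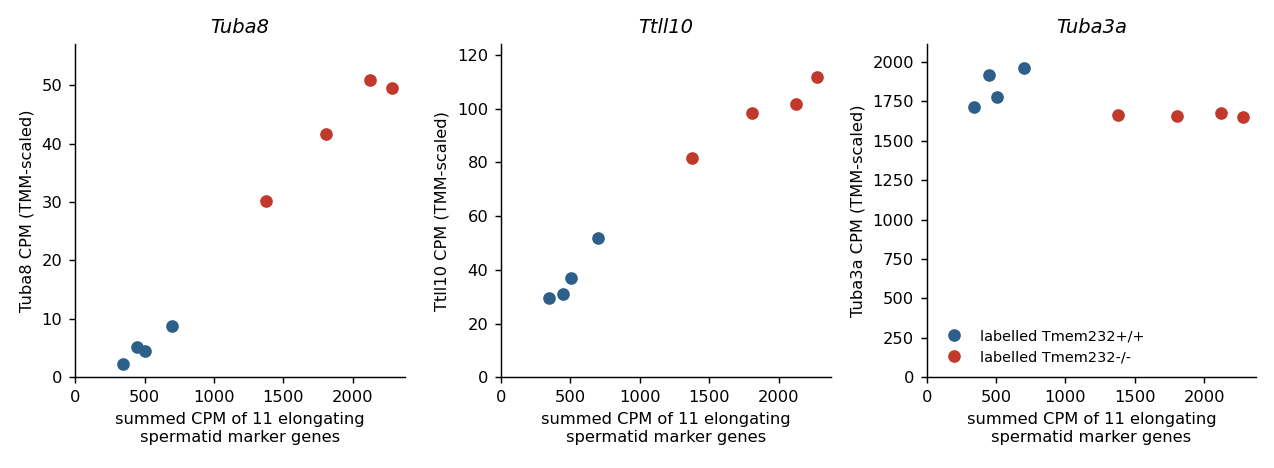
CPM of Tuba8, Ttll10 and Tuba3a in each library against the summed CPM of 11 elongating spermatid marker genes, with 1 point per library (4 per label) and axes from 0. Tuba8 and Ttll10 are higher where the marker sum is higher. Within each label this order is exact for Ttll10, and for Tuba8 apart from KO1 with KO4 and WT1 with WT4. Tuba3a lies between 1648 and 1674 CPM in the KO libraries and between 1712 and 1959 CPM in the WT libraries. Among the WT libraries WT2 is lowest and WT3 highest in both Tuba3a and the marker sum.

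Of 10 spermatogonial markers 3 were lower and none was higher, beside 1.46% and 10.3% of all tested genes, and their sum lay between 269 and 299.6 CPM in KO and between 319 and 349.9 in WT. Of 10 spermatocyte markers 1 was lower, read against the same shares. Of 6 markers of peritubular myoid cells 3 were lower, with sums between 212 and 252 CPM in KO and between 269 and 322 in WT. No gene of the lists for Sertoli, Leydig, endothelial and red blood cells, macrophages, platelets, multiciliated cells and epididymis was called in edgeR, although only 1 of the 4 multiciliated cell genes and 1 of the 4 epididymis genes in the table could be tested, and between 0 and 5 genes of each list had an unadjusted p under 0.05. The 5 were Leydig cell markers, Star, Cyp11a1, Cyp17a1, Hsd3b1 and Lhcgr, of 7 with a median log2 fold change of 0.34, and DESeq2 called 2 of the 7 higher. Their sums lay between 445 and 630.1 CPM in KO and between 308 and 494 CPM in WT. The sums of the multiciliated cell markers, for cells whose cilia use many of the same enzymes, lay between 2.79 and 4.85 CPM over the 8 libraries. The sums of the epididymis markers were 5.79, 0.439, 0.126 and 1.11 CPM in KO1 to KO4 and 27.9, 0.121, 10.3 and 0 CPM in WT1 to WT4, so that WT1 and WT3 stood apart. The sums of the red blood cell markers lay between 150.2 and 596 CPM in KO and between 305 and 595 CPM in WT, with KO1 the lowest. Their part in the differences of the tubulin genes was not tested.

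Genes that work with tubulin were counted in 7 lists, by calls at an adjusted p under 0.05. Of 15 tested proteins inside the doublet microtubules 7 were higher and none was lower, beside 10.3% and 1.46% of all tested genes, with a median log2 fold change of 0.26. Efhc2 had 36.5, 35.96, 31.6 and 23.8 CPM in KO1 to KO4 and 15.7, 13.8, 14.95 and 15.35 CPM in WT1 to WT4, a log2 fold change of 1.10 (SE 0.13). Tekt5, a tektin of the sperm tail, had a mean of 63.0 ± 9.76 CPM in KO and 35.99 ± 7.24 in WT (SD, n = 4), and its log2 fold change was 0.81 (SE 0.147). Ribc1 had 45.4 ± 8.71 and 27.9 ± 3.97 CPM (SD, n = 4) and its log2 fold change was 0.70 (SE 0.138). The summed CPM of the list lay between 2650 and 3048 in KO and between 2093 and 2612 in WT. Of 5 tested partners of the polyglutamylases Ccsap was higher, with 13.4, 12.1, 8.10 and 11.4 CPM in KO1 to KO4 and 4.05, 3.87, 5.32 and 4.05 CPM in WT1 to WT4 (log2 fold change 1.38, SE 0.171). The catalytic Ttll1 and the other 4 partners did not pass the test.

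Of 17 tested microtubule binding proteins 3 were higher, a share not far from the 10.3% of all tested genes, and 1 was lower, beside 1.46% of all. Mapt, the gene of tau, rose from 1.13 ± 0.401 to 2.44 ± 0.557 CPM (SD, n = 4), or by 1.11 on the log2 scale (SE 0.273). Map2 rose from 21.3 ± 2.88 to 42.1 ± 4.89 CPM (SD, n = 4), or by 0.98 on the log2 scale (SE 0.113). Map1s fell from 32.9 ± 1.26 to 26.7 ± 2.22 CPM (SD, n = 4), with -0.30 on the log2 scale (SE 0.0794). The 8 tubulin folding cofactors, the 10 genes of the gamma-tubulin complex and the 8 tested severing proteins had no call in edgeR, with 2, 2 and 0 genes at an unadjusted p under 0.05, and DESeq2 called 1 gene of the gamma-tubulin complex. Their log2 fold changes lay between -0.24 and 0.21. Setd2, which methylates tubulin, had a log2 fold change of -0.14 and no call.

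Promoters were searched for a sequence feature that the genes higher in KO might share. The cAMP response element TGACGTCA, bound by the spermatid regulator CREM, was looked for in the RefSeq promoters of GRCm38, which held 41 of the 46 genes. Both strands of the 250 bases before each promoter start were searched. Some genes had several such starts, and those of Ttll9 and Tuba4a lie inside the annotated gene body and not at its outer end. The full element was found in Tubb2a alone, beside 1.77% of all 27025 genes with a promoter. The shorter TGACG, which the full element contains, was found in 9 of the 41 genes beside 19.8% of all genes, and in Atat1, Ttll9 and Tuba4a among the 12 genes with a promoter that were higher in KO.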

How the data were processed

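The authors sequenced TruSeq libraries in paired ends on a BGISEQ instrument and mapped them with HISAT and Bowtie2 to GRCm38.p6 (tool versions and strand setting are not given in the sources used here). The deposited estimated counts per gene were made by the authors with StringTie and featureCounts and are not whole for 10.7% to 11.2% of values. The deposited FPKM values are the authors' counts per transcript length and library size. The deposited log2 fold changes, p-values and q-values hold the authors' own comparison and were not used.

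Counts were rounded, filtered with filterByExpr and TMM-scaled, and KO was compared with WT by the quasi-likelihood F test of edgeR 4.0.16 (R 4.3.3) over 15787 genes with Benjamini-Hochberg adjustment at 0.05. Alternatives were DESeq2 1.42.0 and its size factors, library size alone, no filter or at least 10 counts in every library, limma 3.58.1 on log2(FPKM + 1) and log2(FPKM + 0.1), a replicate block, the 2-fold rule and leaving out each library. CPM were tested singly with exact permutation tests. The scripts were tested on simulated data. Total counts of 15428421 to 16350871 set the counting error, and p-values measure the spread between the 4 animals of each label. The members and lists were chosen with earlier results of these data known. Full values are given for genes past the adjusted threshold, genes whose labels do not overlap at a mean of at least 1 CPM, the acetylation and tyrosination genes and the 2 highest alpha and beta tubulins; from each pathway list the 3 largest called changes are named. Of the list genes, Cstpp1, Pierce1, Pierce2, Matcap1, Matcap2, Lcn8 and Lcn9 were not matched by symbol. Sequences came from GENCODE vM21 and RefSeq. A stretch of 1 alpha tubulin coding sequence is not printed here.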

Additional observations from a re-analysis of the deposited data

Results flagged for a closer look

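In 52 groups of 4 libraries, the gap of the highest or lowest library to its nearest neighbour was compared with the range of the group, and 3 groups exceeded the 95% limit of Dixon's test for 4 values, which chance alone exceeds in about 1 in 20 groups. Tuba3b had 1605 CPM (1.61e+03 to 3 digits) in KO1, the lowest KO library, with the others between 1675 and 1689 CPM and a gap of 0.838 of the range. Sirt2 had 234 CPM in WT3, with the other WT libraries between 179 and 186 CPM and a gap of 0.881 of the range. Agbl3 had 79.7 CPM in KO4, with the other KO libraries between 103 and 106 CPM and a gap of 0.869 of the range.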

How the results depend on the processing

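Besides the reported fit, 16 fits were made, 8 with all libraries and 8 without 1 library each. Of the 16 called genes, 10 stayed past the threshold in every fit that tested them (Ttll2 was not tested where at least 10 counts in every library were required), and none changed direction. The number higher was 14 and lay between 10 and 15 over the fits, and between 11 and 14 without 1 library. The number lower was 2, fell to 1 with no filter on low counts (Tubb5, adjusted p = 0.0556 in edgeR) and lay between 0 and 2 without 1 library. Under the 2-fold rule 4 were higher and 0 lower. The sign turned for genes that were never called. Tubb4b had log2 fold changes of -0.0021 with library size alone and -0.0016 on both FPKM scales, and between -0.010 and 0.10 without 1 library. Vash1 lay between -0.18 and 0.0030 and Svbp between -0.060 and 0.16 without 1 library. The difference in the share of Tuba3a and Tuba3b lay between -1.66 and -0.62 percentage points without 1 library. Over all genes, 1633 were higher and 230 lower, against 71 lower with no filter, 131 with the size factors of DESeq2, 415 with library size alone, 466 and 448 on the FPKM scales and 37 to 356 without 1 library. The cause was not tested.

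The replicate numbers did not pair the libraries, since same-numbered libraries had correlations of deviations of -0.061, 0.072, -0.33 and -0.11 and each library correlated best with a library of another number under the other label. With the replicate block 10 genes were higher and 0 lower, and 1317 and 28 over all genes. Tubb5, Ttll12, Atat1, Ttll8, Ttll11 and Ttll13 then lost their call, with adjusted p-values in edgeR between 0.0604 and 0.137. The filter on low counts left out 5 of the 46 genes, among them Tubb1 and Agbl1, and all 46 were tested with no filter.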
